A study of Sus scrofa with 18 samples.

Results

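Gene expression was compared between tumours labelled scrotum and tumours labelled nose in a double knock-in (DIK) pig. The comparison used the 6 tumour libraries that carry these labels, 3 per label, of 18 libraries in the series, and covered every gene that passed a low-count filter: 10088 of the 27339 genes in the table. The remaining libraries are 3 tumours labelled mouth and 9 normal tissues of wild-type (WT) pig, 3 for each of the same tissue labels. DIK pigs carry elements of the Tet-on system, in which doxycycline switches a transgene on, and of the phiC31 integrase system. The labels do not name the genes that these elements drive, nor the promoter. At the age of 7 months 3 DIK founders and age-matched WT pigs received doxycycline (Dox). Tumours grew in 1 of these founders, which was killed 8 months later together with age-matched WT, so both tumour groups share 1 animal, its genotype and its treatment, and the control tissues had the drug too. Nothing in the labels says whether the 3 libraries of a label came from separate tumours. The p-values therefore measure only the spread between these libraries, which may be technical, and they do not speak for other animals. How many WT animals were used is not stated.

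Stratified squamous epithelium renews from a basal layer of keratinocytes held to the basement membrane by hemidesmosomes. In skin and in the horny parts of the snout and mouth, cells leaving that layer make the keratins KRT1 and KRT10 and then build a cornified envelope from proteins such as hornerin and repetin, which proteases shed at the surface. In the soft lining of the mouth and oesophagus the upper cells instead make KRT4, KRT13 and mucosal proteins, and keep more fluid surfaces. Interferons and major histocompatibility genes, called SLA in the pig, serve antiviral defence and antigen display, and squamous tumours can gain or lose them. Genes of the HOX family record position along the body, those at the posterior end of each cluster being active in trunk, limb and genital tissue, whereas much of the face forms without them.

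Library totals ran from 2025000 to 4146000 counts over the 6 libraries, so that 3 counts, taken as the floor of detection, corresponded to a level of 0.693 to 1.85 CPM, the count of a gene scaled to a common library size by TMM. Gene lengths were not used, so levels of different genes are not compared. Squamous markers were abundant in both groups, with a summed level of 58050 to 90950 CPM in nose and 54680 to 75940 CPM in the scrotum-labelled libraries (KRT13 and KRT14 were not analysed here). Schwann cell markers reached at most 1.31 CPM, adipocyte markers 0.331 CPM, and the cartilage markers COL2A1 and ACAN were at 0. One library stood apart. Replicates 1 and 3 of the nose tumours correlated at 0.970 (Pearson r of log2 CPM across genes), while nose replicate 2 correlated with them at 0.926 to 0.937 and lay nearer to the scrotum-labelled libraries, at 0.869 to 0.896 against 0.808 to 0.857 for replicates 1 and 3. Where leaving it out changed the call of a gene described here, or moved its difference by over 1.5 times, the value without it is given too.

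The tissue label was at odds with position genes. Posterior HOX genes (17 in the table) summed to only 0.618 to 4.57 CPM in the scrotum-labelled tumours and 4.25 to 7.20 CPM in the nose tumours, against 13.3 to 22.6 CPM in the tumours labelled mouth. In normal tissue the mouth label was again the highest, with 5.25 to 7.45 CPM in WT scrotum, 3.65 to 7.02 CPM in WT nose and 51.6 to 84.7 CPM in WT mouth. HOXA9 and HOXA10 had no count in any of the 6 libraries compared and were at 1.51 to 4.16 and 1.85 to 4.83 CPM in the mouth-labelled tumours. These values go against the scrotum label in tumours and in WT tissue, and the highest levels stood under the mouth label. Whether the mouth and scrotum labels were exchanged was not tested. All groups, WT included, are therefore called by their labels, and no result below is to be read as one of scrotal tissue.

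At an adjusted p under 0.05 (edgeR quasi-likelihood test, Benjamini-Hochberg adjustment over all genes tested, used for every adjusted p below), 1758 genes or 17.4% of those tested differed. Of these, 912 (9.04%) were higher and 846 (8.39%) lower in the scrotum-labelled tumours, and the log2 differences below are scrotum-labelled minus nose. The lower genes reached further: 42 of them differed by at least 32-fold and 121 by at least 8-fold, against 6 and 53 of the higher genes. The median over all genes tested was -0.01. Scaling by library size alone moved that median to -0.22 and split the calls into 607 higher and 1309 lower, so that 31.7% of calls were higher against 51.9%. Leaving out nose replicate 2 raised the calls to 1198 higher (11.3% of 10581 genes tested) and 1099 lower (10.4%). Leaving out nose replicate 1 lowered them to 529 and 553, and leaving out scrotum-labelled replicate 2 to 502 and 454. With all 18 libraries sharing 1 estimate of the spread, 436 were higher and 377 lower. Of the genes described below, KRT10, KLK7, CALML5, ALOX12B, IVL, CRISP3, TGM3, KRT7, TGFA, DUSP6, RRM2, COL1A1, TNC, VWF, DGAT2, SLA-2, LAMB3, TGM1, TYROBP, ACTA2, SOX2, MAF, CRNN and FOXE1 lost their calls in that fit, besides those for which it is said again below.

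**Figure D1:**
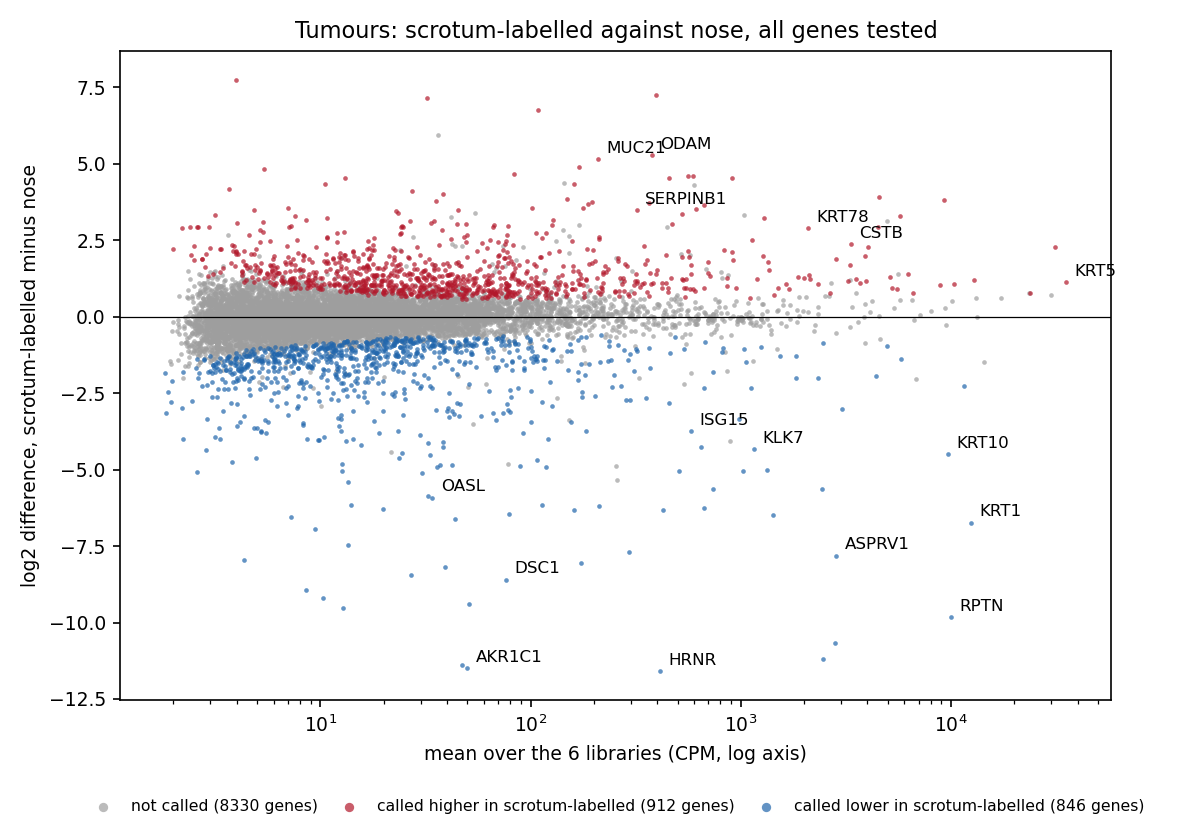
Each point is 1 of the 10088 genes tested, with its mean over the 6 libraries (CPM, log axis) across and its log2 difference, scrotum-labelled minus nose, upward; 912 genes called higher are red, 846 called lower are blue and the rest grey. The genes of the cornified layer (HRNR, RPTN, ASPRV1, KRT1, KRT10) lie at the bottom right, where both the level and the difference are large.

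Genes of the cornified layer were mostly lower. Of 25 tested genes of the cornified epidermis, 18 were lower in the scrotum-labelled tumours, 1 was higher and 6 were not called, with a median log2 difference of -2.35. Their summed level was 81070 to 95080 CPM in nose and 15370 to 23690 CPM in scrotum-labelled libraries. The count was 17 lower of 26 tested without nose replicate 2, and 6 lower when all 18 libraries shared 1 estimate of the spread.

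KRT1, the keratin that replaces basal keratins as cells begin to cornify, was at 29060, 14920 and 30250 CPM in nose replicates 1 to 3 and at 357, 36.4 and 308 CPM in the scrotum-labelled ones, a log2 difference of -6.73 (SE 0.91, adjusted p = 0.00245). This call was lost when all 18 libraries shared 1 estimate of the spread (adjusted p = 0.083). Its partner KRT10 was at 19120, 13570 and 23060 CPM against 1289, 170 and 1002 CPM (-4.50, SE 0.69, adjusted p = 0.00292). For both keratins every nose library lay above every scrotum-labelled one, and scrotum-labelled replicate 2 was the lowest of the 6. Keratins form a family of close copies between which reads could be split, so their levels are less certain than those of single-copy genes.

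Proteins of the granular layer included some of the largest differences. HRNR (hornerin) had 852, 927 and 695 CPM in nose, from 9936 counts, and 0.261, 0.331 and 0 CPM in the scrotum-labelled libraries, from 2 counts and so at or under the floor, a ratio of 3499 with a 95% counting interval of 968.5 to 28900. RPTN (repetin) was at 21570, 21010 and 17210 CPM against 26.9, 12.6 and 27.2 CPM (-9.82, SE 0.46, adjusted p = 4.3e-10). ASPRV1, the protease that trims filaggrin, was at 5379, 6994 and 4639 CPM against 21.7, 21.9 and 33.4 CPM (-7.81, SE 0.38, adjusted p = 3.75e-10). Nose replicate 2 sat with the other nose libraries for all of these genes. RPTN was at 20.8 to 45.3 CPM in the mouth-labelled tumours too, so its low level was not particular to the scrotum label. HRNR was at 129 to 169 CPM and ASPRV1 at 1603 to 3109 CPM there. DSC1, the desmocollin of the upper epidermis, was at 105 to 179 CPM in nose and at most 0.618 CPM under the scrotum label, 1838 counts against 3, a ratio of 432 with an interval of 147 to 2095.

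Enzymes that act in the dying layers were lower too. The shedding proteases KLK5, KLK7 and KLK8 differed by -6.17 (SE 0.37), -4.34 (SE 0.30) and -5.65 (SE 0.35) on the log2 scale. KLK7, the chymotryptic one, was at 2028, 2775 and 1772 CPM in nose and 74.6, 114 and 137 CPM in scrotum-labelled libraries. CASP14, the caspase of cornification, differed by -6.32 (SE 0.43), and CALML5, a calcium sensor of the same layer, by -6.48 (SE 0.53). ALOX12B, a lipoxygenase of the skin lipid barrier, was at 79.5 to 154 CPM in nose and 7.95 to 19.3 CPM in the other group (-3.16, SE 0.32, adjusted p = 4.87e-06). The groups did not overlap for any of these genes, but the rule that named KLK5 and KLK8 required this. KLK7, CASP14, CALML5 and ALOX12B were added after their values were seen, so the lack of overlap is not a separate result.

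Not all envelope genes moved to that degree. IVL (involucrin), an early envelope protein shared by mucosa and skin, differed by only -0.97 (SE 0.24, adjusted p = 0.00937), with 5437 to 8113 CPM in nose and 2600 to 4157 CPM under the scrotum label. LOR (loricrin) was not called at 889, 1220 and 1366 against 487, 268 and 814 CPM (-1.15, SE 0.43, adjusted p = 0.0943). TGM1, the membrane-bound cross-linking enzyme, was the 1 member called higher (0.73, SE 0.22, adjusted p = 0.0256), a call lost without nose replicate 1, nose replicate 3 or scrotum-labelled replicate 2 and under scaling by library size alone.

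Several of the largest differences were of genes with no count in the scrotum-labelled tumours. AKR1C1, a steroid and aldehyde reductase, had 1207 counts in nose (110, 81.0 and 110 CPM) and was at least 283-fold higher there. TMEM229B, with 1124 counts, was at least 264-fold higher in nose, and SULT1E1, the oestrogen sulfotransferase, with 207 counts, at least 48.6-fold. These bounds set the scrotum-labelled group at 3 counts in all. AKR1C1 was also low in the mouth-labelled tumours, at 0 to 1.21 CPM, while TMEM229B was at 29.7 to 103 CPM and SULT1E1 at 9.65 to 15.7 CPM.

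**Figure D2:**
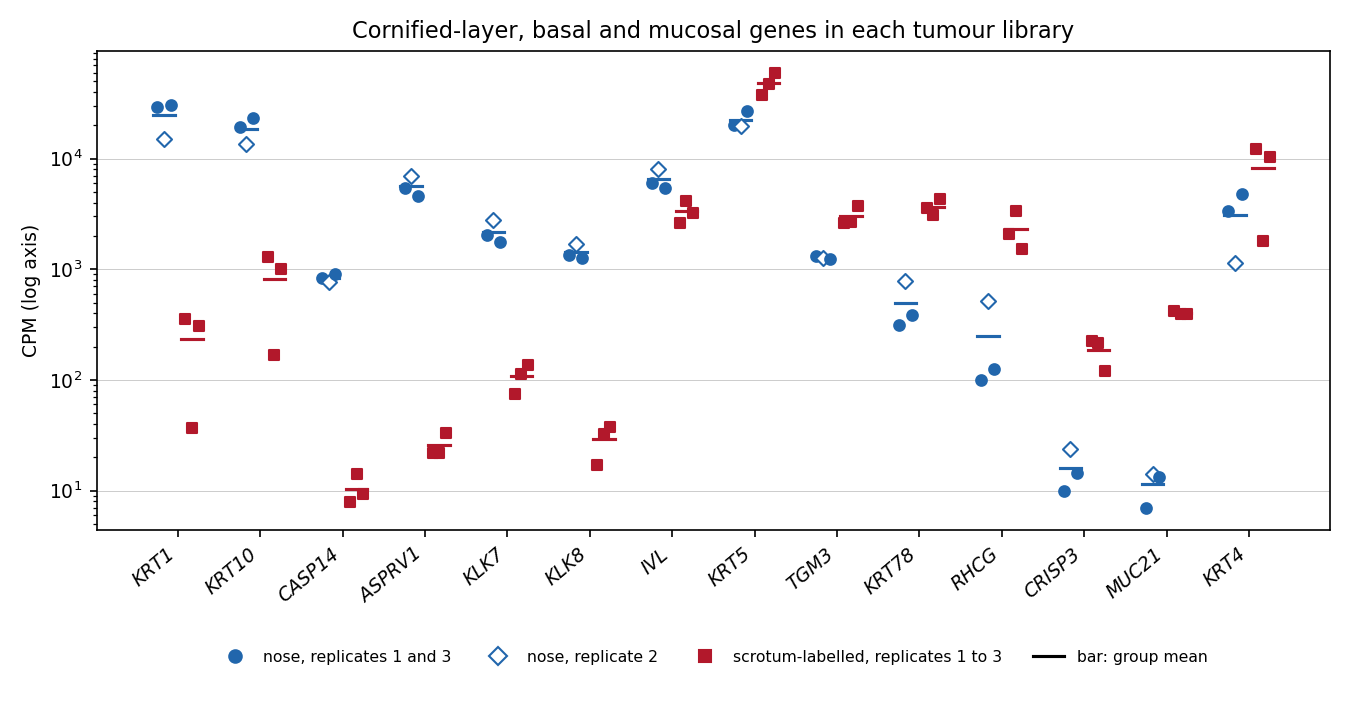
Levels (CPM, log axis) of cornified, basal and mucosal genes in each of the 6 tumour libraries, with bars at the group means; the open diamond is nose replicate 2. From KRT1 to KLK8 all red squares lie below all blue points, by the widest margin for ASPRV1 among the genes drawn, and from TGM3 to MUC21 all lie above; KRT4 overlaps.

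Genes listed for the oral and oesophageal lining leaned the other way. The list holds genes that the epidermis makes too, TGM3 among them, so its count does not by itself separate mucosa from skin. Of 13 tested, 8 were higher in the scrotum-labelled tumours, 1 was lower and 4 were not called, and the median was 1.29. MUC21, a membrane mucin of the oesophageal surface, was at 6.93, 14.2 and 13.3 CPM in nose and at 423, 398 and 398 CPM in scrotum-labelled libraries (5.15, SE 0.31, adjusted p = 7.16e-09), and at no more than 3.01 CPM in mouth-labelled tumours. KRT78, a keratin of oral epithelium, was at 314, 779 and 388 CPM against 3614, 3121 and 4298 CPM (2.90, SE 0.43, adjusted p = 0.000589). CRISP3, a secreted mucosal protein, differed by 3.56 (SE 0.33), and TGM3, a transglutaminase of oral, follicular and epidermal epithelium, by 1.24 (SE 0.23). RHCG, the ammonium transporter of squamous mucosa, was at 100, 520 and 125 CPM against 2103, 3355 and 1511 CPM (3.22, SE 0.71, adjusted p = 0.0187), with adjusted p up to 0.0659 over the alternatives run.

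The mucosal genes did not all follow. KRT4, the keratin most used to mark this lining, was not called, at 3332, 1128 and 4767 CPM in nose and 12250, 1804 and 10410 CPM under the scrotum label (1.41, SE 0.77, adjusted p = 0.275). The groups overlapped, since scrotum-labelled replicate 2 was low and close to nose replicate 2. MAL (1.16, SE 0.46), ENDOU (0.36, SE 0.27) and PPL (0.50, SE 0.24) were not called either. Without nose replicate 2 MAL was called (2.00, adjusted p = 2.83e-06) and ENDOU differed by 0.18. CRNN (cornulin), also of this list, was lower at 2415 to 2804 CPM in nose and 506 to 1369 CPM in the other group (-1.28, SE 0.40, adjusted p = 0.0441), and lost its call when any 1 of the 6 libraries was left out. With all 18 libraries in 1 fit, 3 of the list were called higher and none lower.

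Other genes with large differences or small adjusted p were of various kinds. ODAM, an adhesion protein of the tooth-gum junction, was at 11.3, 37.2 and 8.37 CPM against 942, 1018 and 246 CPM (5.28, SE 0.85, adjusted p = 0.00604). ADA (adenosine deaminase) was at 8.55 to 13.6 CPM in nose and 190 to 420 CPM in scrotum-labelled libraries (4.88, SE 0.32). The protease inhibitors SERPINB1 and CSTB differed by 3.49 (SE 0.22) and 2.37 (SE 0.23), and the chaperone CLU (clusterin) by 3.52 (SE 0.30). Among membrane mucins and defence genes, 3 of 6 tested were higher and none lower. DEFB1, a beta-defensin, was at 19.4, 95.5 and 18.3 CPM against 735, 784 and 1705 CPM (4.60, SE 0.80, adjusted p = 0.00779), and the adhesion protein CEACAM1 differed by 2.96 (SE 0.38).

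Basal genes were higher as well. Of 18 tested genes of the basal keratinocyte, 8 were higher and none lower, with a median of 0.91, and without nose replicate 2 there were 10 higher and 1 lower. Without nose replicate 1, nose replicate 3 or scrotum-labelled replicate 2 there were 5 higher. KRT5, the basal keratin, was at 19940, 19730 and 27180 CPM in nose and 37400, 47660 and 59970 CPM in scrotum-labelled tumours (1.12, SE 0.24, adjusted p = 0.00382), and this call was lost with all 18 libraries in 1 fit (adjusted p = 0.682). The hemidesmosome and laminin-332 genes moved further. LAMA3 was at 21.5, 39.2 and 23.0 CPM against 219, 223 and 114 CPM (2.74, SE 0.32, adjusted p = 2.32e-05), and ITGB4 at 18.3, 37.7 and 30.9 against 122, 182 and 73.5 CPM (2.13, SE 0.32, adjusted p = 0.000286). LAMB3 differed by 3.15 (SE 0.65, adjusted p = 0.0142), and by 4.08 without nose replicate 2, but lost its call without nose replicate 3 or scrotum-labelled replicate 2. TP63, the master factor of squamous epithelium, was not called, at 55.4 to 87.7 CPM in nose and 43.9 to 48.5 CPM in the other group (-0.64, SE 0.22, adjusted p = 0.0579).

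Keratins of simple epithelium were among the higher genes. KRT19 was at 80.2, 63.0 and 138 CPM in nose and 732, 1607 and 525 CPM under the scrotum label (3.35, SE 0.43, adjusted p = 0.000273), and KRT7 differed by 2.68 (SE 0.31, adjusted p = 2.03e-05). In all 3 of 8 tested genes of that list were higher and none lower. With all 18 libraries in 1 fit the adjusted p of KRT19 was 0.197. Gland markers were at 0.523 to 2.08 CPM in nose and 1.83 to 5.63 CPM under the scrotum label, with BPIFA1 at 0; their part in the result was not tested.

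Among 22 tested transcription factors of squamous epithelium, 3 were higher and 3 lower. These counts are close to the shares of all genes tested, 9.04% higher and 8.39% lower, and are not read as a result about the list. GATA3, a factor of epidermal differentiation, was at 17.6, 27.4 and 23.8 CPM in nose and 3.39, 0.994 and 1.85 CPM under the scrotum label (-3.35, SE 0.40, adjusted p = 1.91e-05). KLF4, which drives barrier formation, differed by -1.38 (SE 0.21) and HOPX by -1.27 (SE 0.28). Among the higher genes were SOX2 (1.59, SE 0.41), a factor of the oesophageal lining, and MAF (1.15, SE 0.39). SOX2 lost its call without nose replicate 1 or scrotum-labelled replicate 1, and MAF in most alternatives. The calls of GATA3, KLF4 and HOPX were lost with all 18 libraries in 1 fit. The water channel AQP5, of the gland list, was at 17.6 to 31.2 CPM in nose and 0.522 to 1.24 CPM under the scrotum label (-5.03, SE 0.45, adjusted p = 7.73e-07).

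Patterning genes of the face and jaw split evenly. Of 14 tested, 4 were higher and 4 lower, with a median of -0.18, and 22 of the 36 in the table were too low to test. PITX1, which acts in the oral epithelium, the jaw and the hindlimb, was at 6.93, 14.2 and 11.5 CPM against 68.1, 120 and 76.6 CPM (3.02, SE 0.29, adjusted p = 2.2e-06). It kept its call in all of the alternatives run. RUNX2, a skeletal and dental factor, differed by 2.02 (SE 0.34). FOXE1, a factor of the foregut and palate, differed by 2.20 (SE 0.65, adjusted p = 0.0292), with adjusted p up to 0.0836 over the alternatives run.

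The lower genes of that list were OTX1, DLX3, DLX5 and TFAP2A. OTX1, a head homeobox gene, was at 48.1, 25.3 and 56.2 CPM in nose and 7.04, 3.31 and 11.1 CPM under the scrotum label (-2.68, SE 0.41, adjusted p = 0.000396). DLX3, of the branchial arches and the upper epidermis, differed by -1.67 (SE 0.28) and TFAP2A, of the neural crest and epidermis, by -1.12 (SE 0.22). All 4 calls were lost with all 18 libraries in 1 fit, and that of DLX5 also without nose replicate 3 or scrotum-labelled replicate 1 or 2. NKX2-3, a homeobox gene of the pharynx and gut, had no count in the nose or mouth-labelled tumours and 58 counts under the scrotum label (5.22, 5.63 and 12.97 CPM), at least 27.5-fold higher than in nose. PAX9, of the pharynx and palate, was not tested, with 1 count in nose and 20 under the scrotum label. Of the 17 posterior HOX genes 0 were high enough to test.

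**Figure D3:**
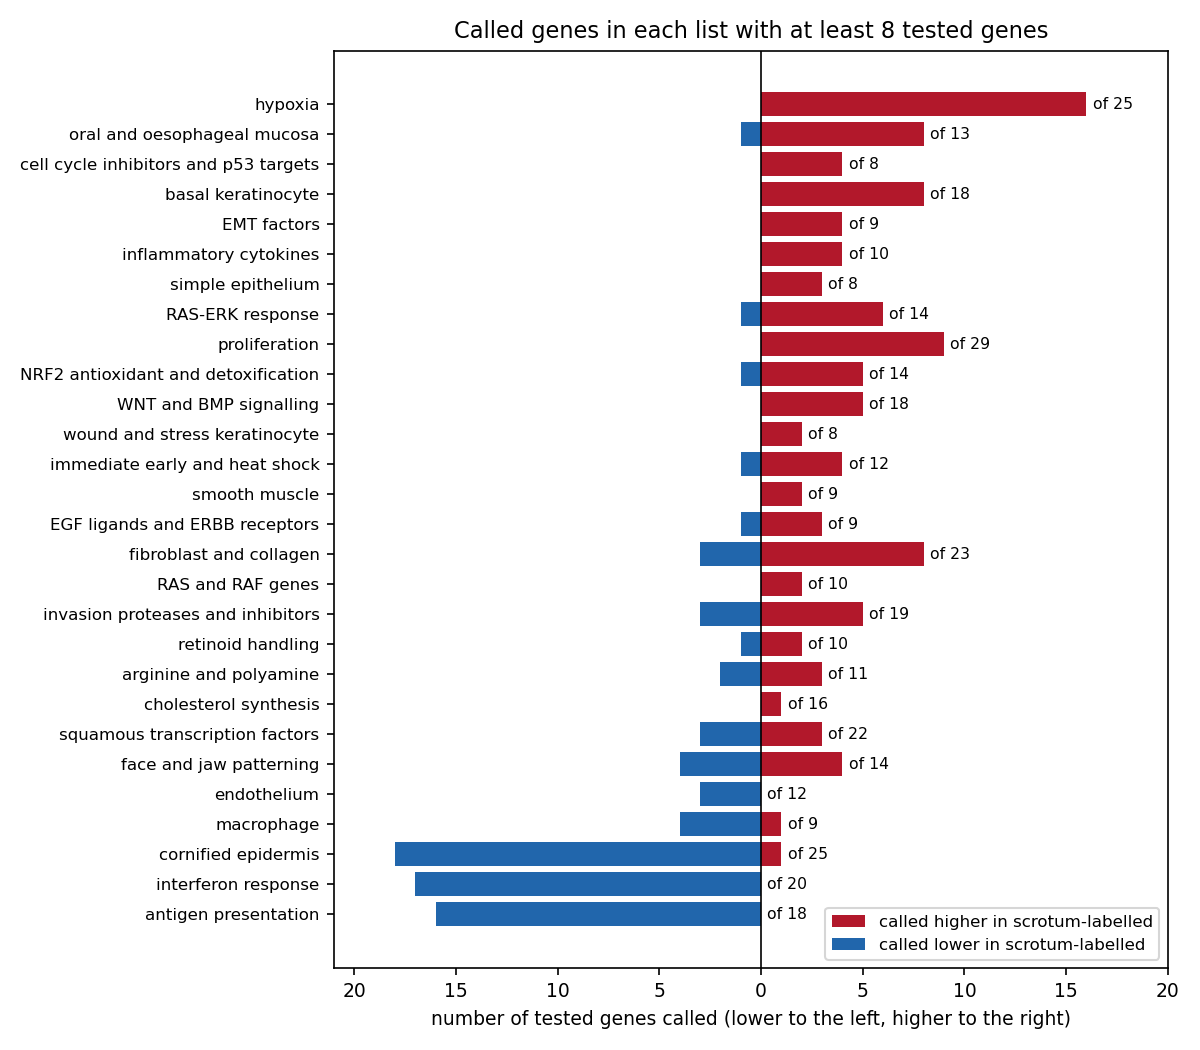
For each gene list with at least 8 tested genes, the bar to the right counts genes called higher in scrotum-labelled tumours and the bar to the left genes called lower, with the number tested beside it. Hypoxia genes (16 of 25) reach furthest to the right, and cornified epidermis (18 of 25), interferon response (17 of 20) and antigen presentation (16 of 18) furthest to the left.

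Interferon-response genes were lower with few exceptions. Of 20 tested, 17 were lower, none was higher, and IFIT1, IFIT3 and IRF7 were not called; the median was -2.64. Their summed level was 1204, 2272 and 1157 CPM in nose and 131, 192 and 219 CPM in scrotum-labelled libraries, so the groups did not overlap. The count was also 17 without nose replicate 2, and between 10 (with a filter of 10 CPM, which left fewer genes) and 18 over the alternatives run. ISG15, a ubiquitin-like protein induced by interferon, was at 787, 1688 and 743 CPM against 37.6, 105 and 101 CPM (-3.74, SE 0.42, adjusted p = 9.19e-05). OAS1, a sensor of double-stranded RNA, was at 73.7, 95.5 and 78.7 CPM against 6.26, 8.94 and 11.7 CPM (-3.26, SE 0.26, adjusted p = 1.53e-07). Among the other members, OASL differed by -5.92 (SE 0.61), IFI44L by -3.99 (SE 0.37) and the antiviral GTPase MX1 by -2.78 (SE 0.31). In the mouth-labelled tumours ISG15 was at 72.9 to 84.8 CPM, OAS1 at 11.4 to 14.3 CPM and MX1 at 3.05 to 4.16 CPM. These levels too lay below every nose library, so low values of these genes were not particular to the scrotum label.

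Antigen-presentation genes were lower alongside them. Of 18 tested, 16 were lower and none higher, with a median of -1.71; without nose replicate 2 the count was 17. The class II chain SLA-DRA was at 389, 182 and 321 CPM in nose and 68.1, 36.1 and 58.1 CPM under the scrotum label (-2.46, SE 0.29, adjusted p = 2.22e-05). SLA-DQB1 differed by -2.83 (SE 0.33). Class I genes were lower too. B2M, the light chain shared by class I molecules, was at 158, 112 and 160 CPM against 42.3, 38.4 and 48.8 CPM (-1.74, SE 0.22, adjusted p = 3.52e-05), and SLA-2 differed by -1.16 (SE 0.24). Nose replicate 2 was the lowest nose library for each of these genes and still lay above all scrotum-labelled ones. Mouth-labelled tumours had SLA-DRA at 95.3 to 112 CPM, SLA-DQB1 at 217 to 230 CPM and B2M at 64.3 to 77.8 CPM. These levels lay below every nose library and above every scrotum-labelled one, so values below nose were not particular to the scrotum label. SLA-2 was at 603 to 758.5 CPM there, beside 758.7 CPM in nose replicate 2. Class I genes are near-identical copies of each other, so reads could be split between them.

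Markers of immune cells moved with these lists in part. B and plasma cell markers summed to 33.5 to 362 CPM in nose and 2.32 to 14.8 CPM under the scrotum label, nearly all of it JCHAIN, with MS4A1 at 0. T cell markers were at 1.29 to 5.78 and 0 to 1.30 CPM, too low to test. Macrophage markers overlapped as a sum, at 55.0 to 99.9 and 60.5 to 158 CPM, but did not all move alike. CD68 was higher, C1QA and C1QB were lower, and CD163 (-0.53, SE 0.49) and CSF1R (-0.83, SE 0.32) were not called. In the wider macrophage list 4 of 9 tested genes were lower and 1 was higher. The complement genes C1QA, C1QB and C1QC were lower by -2.46 (SE 0.36), -2.14 (SE 0.33) and -2.27 (SE 0.32), as was the adaptor TYROBP (not without scrotum-labelled replicate 2), while CD68, a lysosomal protein of phagocytes and other cells, was at 11.1, 13.4 and 16.2 CPM against 70.7, 143 and 44.5 CPM (2.68, SE 0.35, adjusted p = 9.28e-05). The part of these cells in the interferon and antigen-presentation results was not tested. In bulk tissue, fewer cells of a type and less RNA per cell cannot be told apart.

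**Figure D4:**
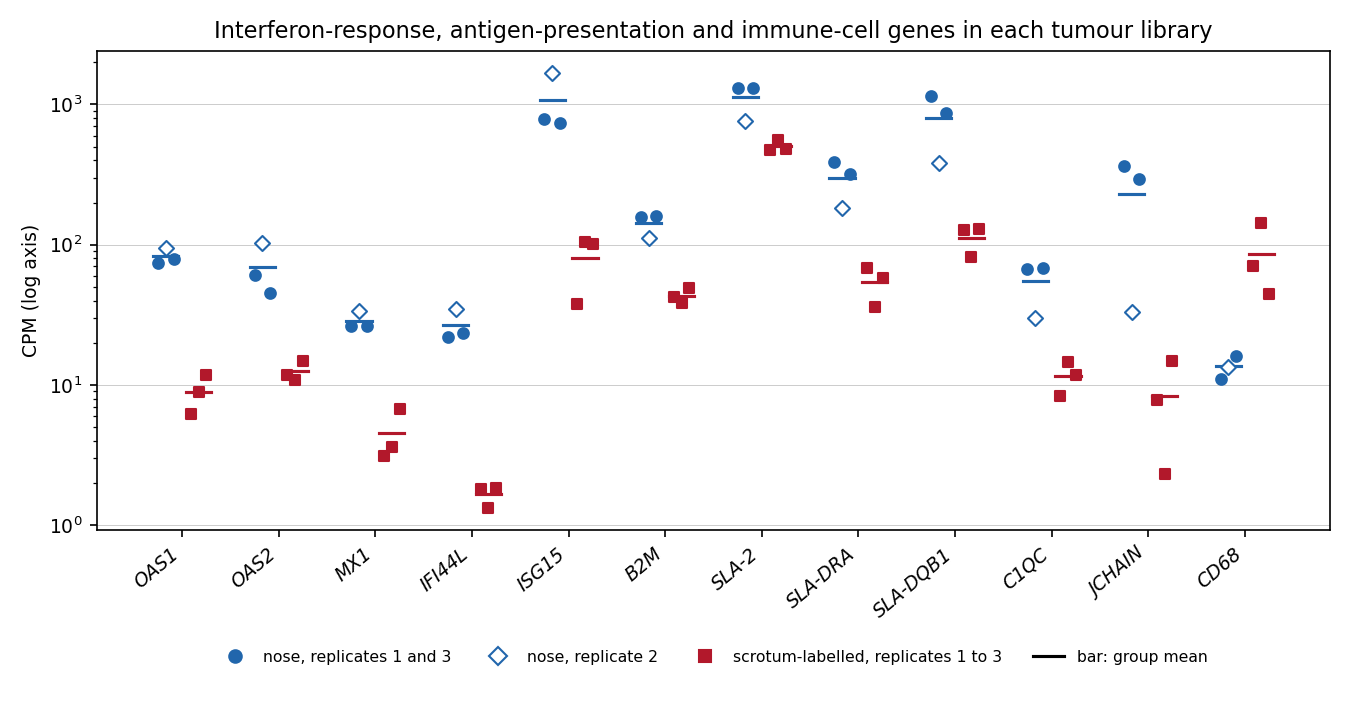
Levels (CPM, log axis) of interferon-response, antigen-presentation and immune-cell genes in each tumour library, with bars at the group means. Red squares (scrotum-labelled) lie below all nose libraries for each gene drawn except CD68, where they lie above; nose replicate 2 (open diamond) is the highest nose library for ISG15 and the lowest for SLA-DRA and JCHAIN.

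Hypoxia genes formed the list with the most higher calls. Of 25 tested, 16 were higher and none lower, with a median of 1.39, and between 12 and 19 were higher over the alternatives run. SLC2A1, the glucose transporter, was at 343, 803 and 407 CPM in nose and 1899, 2538 and 1687 CPM under the scrotum label (1.98, SE 0.30, adjusted p = 0.000196). LDHA, which turns pyruvate into lactate, was at 1066, 1769 and 823 CPM against 3865, 5218 and 4352 CPM (1.88, SE 0.28, adjusted p = 0.000193). The mitophagy receptor BNIP3 differed by 1.95 (SE 0.29), the collagen hydroxylase P4HA2 by 1.72 (SE 0.25) and the endoplasmic oxidase ERO1A by 2.61 (SE 0.45). Nose replicate 2 was the nose library nearest the scrotum-labelled ones for each of these genes. The mouth-labelled tumours had SLC2A1 at 1332 to 1611 CPM, LDHA at 2270 to 3387 CPM, BNIP3 at 281 to 539 CPM and P4HA2 at 29.4 to 38.6 CPM. All of these lay above every nose library, so levels above nose were not particular to the scrotum label for these genes. VEGFA, the vessel growth factor, was not called at 1.62, 11.4 and 1.83 against 12.5, 9.94 and 10.5 CPM (1.18, SE 0.56, adjusted p = 0.181), and differed by 2.67 without nose replicate 2 (adjusted p = 2.86e-05). Endothelial markers summed to 88.9 to 98.7 CPM in nose and 45.7 to 71.2 CPM under the scrotum label. Of these markers VWF was lower (-1.47, SE 0.33), while PECAM1 (-0.44, SE 0.22) and CDH5 (0.13, SE 0.27) were not called. The part of endothelial cells in the result was not tested.

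Genes that respond to RAS and ERK signalling were partly higher: 6 of 14 tested were higher and 1 lower, with a median of 1.02. DUSP6, an ERK phosphatase induced by ERK itself, was at 5.31, 13.7 and 4.97 CPM in nose and 28.2, 28.8 and 19.2 CPM under the scrotum label (1.69, SE 0.39, adjusted p = 0.00689). The ephrin receptor EPHA2 differed by 1.39 (SE 0.30) and cyclin D1 (CCND1) by 1.10 (SE 0.24). FOSL1, a partner of JUN, differed by 1.96 (SE 0.46, adjusted p = 0.0123) and lost its call without nose replicate 1 or scrotum-labelled replicate 2. Without either of those libraries 3 of the list were called higher. Of 10 genes of RAS, RAF, MEK and ERK, 2 were higher, among them the kinase MAP2K1 (1.82, SE 0.32, adjusted p = 0.000759). Over all genes tested 9.04% were higher.

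Of 9 tested EGF ligands and ERBB receptors 3 were higher and 1 lower. TGFA was at 172, 208 and 197 CPM in nose and 284, 470 and 548 CPM under the scrotum label (1.17, SE 0.24, adjusted p = 0.00235). HBEGF, a heparin-binding ligand, was at 95.4, 405 and 114 CPM against 821, 1151 and 776 CPM (2.16, SE 0.55, adjusted p = 0.0276), with adjusted p up to 0.0957 over the alternatives run. AREG (amphiregulin) was not called at 6.70, 78.7 and 8.37 against 184, 177 and 95.7 CPM (2.29, SE 0.96, adjusted p = 0.167), but was without nose replicate 2 (4.35, adjusted p = 1.29e-08). HBEGF differed by 3.14 without that library. EGFR was at 36.1 to 40.7 CPM in nose and 30.9 to 45.7 CPM in the other group (-0.05, SE 0.21, adjusted p = 0.896).

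Proliferation genes showed small differences. Of 29 tested, 9 were higher and none lower, with a median of 0.61, but 3 were higher under scaling by library size alone, 4 without nose replicate 1 or nose replicate 3, 3 without scrotum-labelled replicate 2 and 1 with all 18 libraries in 1 fit. MCM4, of the replicative helicase, was at 7.39 to 9.68 CPM in nose and 20.9 to 29.7 CPM under the scrotum label (1.48, SE 0.25, adjusted p = 0.000559), and RRM2, which makes deoxynucleotides, differed by 1.34 (SE 0.25). MKI67 and TOP2A were not called (0.41, SE 0.29, and 0.24, SE 0.25). In the list of cell cycle inhibitors and p53 targets 4 of 8 tested were higher and none lower, namely CDKN1A, GADD45A, GADD45B and SESN2; GADD45B lost its call in 10 of 21 alternatives. The inhibitor CDKN2B was not called (-0.21, SE 0.27, adjusted p = 0.648). CDKN1A (p21) was at 93.6, 282 and 92.1 CPM against 545, 755 and 379 CPM (1.85, SE 0.42, adjusted p = 0.0111), a call lost without scrotum-labelled replicate 2. GADD45A differed by 2.09 (SE 0.32) and SESN2 by 2.01 (SE 0.33), both induced by stress, whereas MDM2 was not called (0.24, SE 0.29). Of 12 immediate early and heat shock genes 4 were higher and 1 lower, led in size by FOS at 14.1, 56.2 and 11.5 CPM against 513, 328 and 203 CPM (3.68, SE 0.70, adjusted p = 0.0104).

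Counts of inflammatory genes and matrix proteases moved with nose replicate 2. Of 10 tested inflammatory cytokine genes 4 were higher and none lower, and without scrotum-labelled replicate 3 there were 7 higher. Without nose replicate 2 all 13 tested were higher, with medians of 2.17 and 3.73. IL1B, CSF2 and CSF3 were tested only in that fit, with 10, 3 and 5 counts in all nose libraries and 70, 30 and 43 under the scrotum label. They passed its filter through the scrotum-labelled libraries, so their direction is not a separate result. The medians therefore cover different genes. Of 19 tested proteases and inhibitors 5 were higher and 3 lower, and 11 and 4 without nose replicate 2. The medians were 0.86 and 2.17, each over the genes tested in its fit. Without scrotum-labelled replicate 2 the counts were 3 and 1. Summed levels of the protease list were 685, 3938 and 603 CPM in nose and 13600, 14720 and 10060 CPM under the scrotum label.

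MMP1, the interstitial collagenase, was at 207, 2699 and 157 CPM in nose and 9365, 9925 and 7412 CPM under the scrotum label, and was not called (3.12, SE 1.18, adjusted p = 0.133). Nose replicate 2 was more than 10 times the other nose libraries and still below the scrotum-labelled ones, and without it the difference was 5.62 (adjusted p = 1.4e-09). PTGS2, the inducible prostaglandin synthase, showed the same order at 6.24, 114 and 6.28 against 356, 235 and 194 CPM (2.64, SE 1.19, adjusted p = 0.195), with 5.39 and an adjusted p of 4.53e-07 without that library. The neutrophil attractant CXCL8 was not called either (2.84, SE 1.40, adjusted p = 0.237), and was without that library (5.76, adjusted p = 0.022).

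For the calprotectin gene S100A8 the library lay above both groups. S100A8 was at 1337, 12090 and 1060 CPM in nose and 4312, 8209 and 5023 CPM under the scrotum label (0.28, SE 0.96, adjusted p = 0.887), and differed by 2.29 without nose replicate 2 (adjusted p = 3.22e-05). Keratinocytes under stress and neutrophils both make it. The neutrophil markers summed to 11.3 to 19.4 CPM in nose and 13.6 to 24.8 CPM under the scrotum label, with FPR1 not analysed here. Their part in the result was not tested.

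Other members of these lists were called with all libraries in place. CTSL, a lysosomal cathepsin, was at 8.32, 10.6 and 9.42 CPM in nose and 55.8, 86.1 and 57.4 CPM under the scrotum label (2.82, SE 0.29, adjusted p = 4.01e-06). IL33, an epithelial alarmin, differed by 1.66 (SE 0.25), and IL24 had 4 counts in nose, all in replicate 2, and 91 under the scrotum label (4.84, SE 0.65). Without that library nose was at 0, and the fitted difference of 8.22 then depends on the prior count. TIMP1, the collagenase inhibitor, differed by 3.02 (SE 0.64, adjusted p = 0.0154) and lost its call without scrotum-labelled replicate 2. MMP12, a macrophage elastase, was called at an adjusted p of 0.041, but lost the call in 11 of 21 alternatives. The difference was 4.53 (SE 1.14), and 6.23 without nose replicate 2. Among genes described elsewhere, leaving out that library moved DEFB1 to 5.81, CEACAM1 to 3.64, ODAM to 6.23, RHCG to 4.37, ARG1 to 4.17 and TIMP1 to 4.14. It moved FOS to 4.77, FOSL1 to 2.86, BMP2 to 3.77, LOXL2 to 3.73, ERO1A to 3.23, GADD45A to 2.72, CDKN1A to 2.60 and DUSP6 to 2.32.

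**Figure D5:**
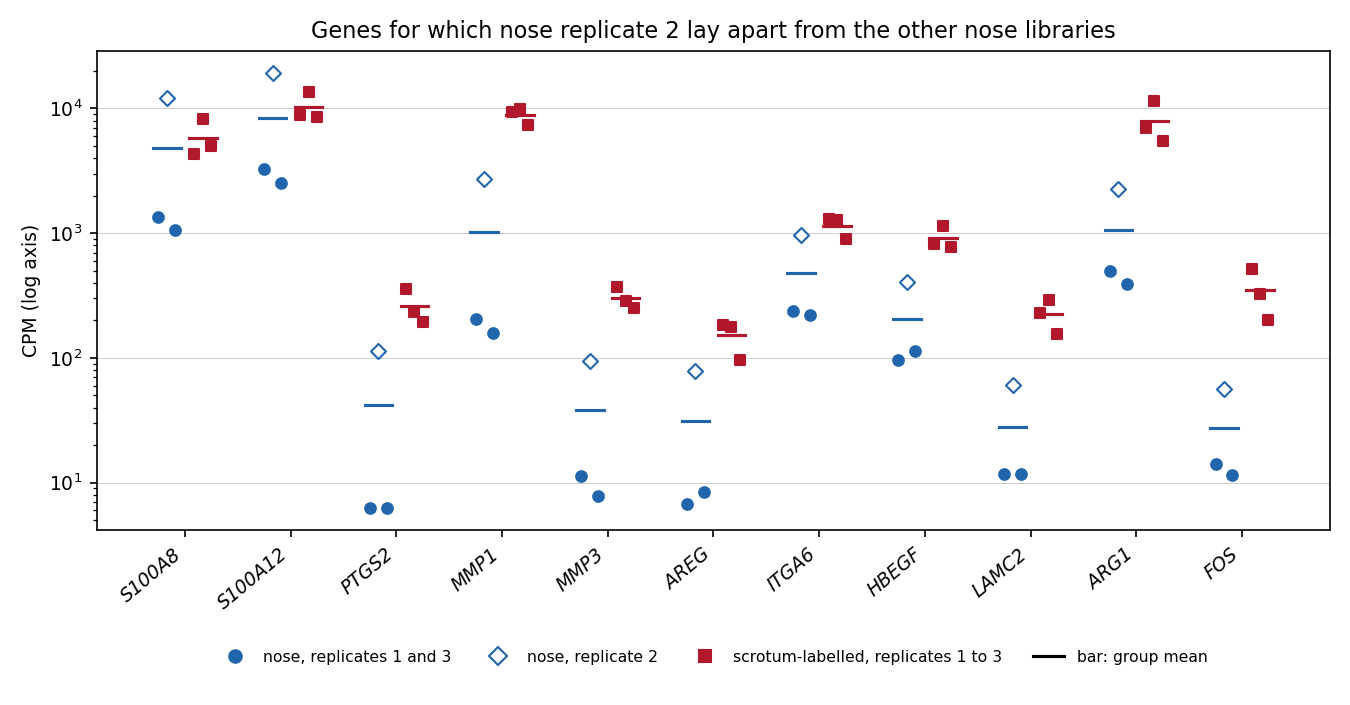
Levels (CPM, log axis) of genes for which nose replicate 2 (open diamond) lay apart from nose replicates 1 and 3 (filled circles), beside the 3 scrotum-labelled tumours (red squares), with bars at the group means; the genes were picked after their values were seen. For MMP1 the diamond at 2699 CPM stands between the other nose libraries (157 and 207 CPM) and the scrotum-labelled ones (7412 to 9925 CPM).

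Stromal genes were called in both directions. Fibroblast markers summed to 769 to 2043 CPM in nose, lowest in replicate 2, and 2369 to 3691 CPM under the scrotum label. Of 23 tested fibroblast and collagen genes 8 were higher and 3 lower, with a median of 0.46. Over all genes tested 9.04% were higher and 8.39% lower, so the lower count is not read as a result about the list. COL1A1, the main chain of type I collagen, was at 473, 197 and 462 CPM against 757, 1142 and 1152 CPM (1.43, SE 0.30, adjusted p = 0.00327). TNC (tenascin C), a matrix protein of remodelling tissue, differed by 1.56 (SE 0.24). DCN (decorin), which coats mature collagen fibrils, was lower at 220, 84.9 and 221 CPM against 46.4, 33.5 and 85.9 CPM (-1.69, SE 0.39, adjusted p = 0.0101), with nose replicate 2 inside the range of the other group. Without scrotum-labelled replicate 2 or 3 there were 5 higher, and with all 18 libraries in 1 fit 1 was higher and 1 lower. Of 9 tested genes linked to epithelial-mesenchymal transition 4 were higher and none lower, among them the collagen cross-linker LOXL2 (3.14, SE 0.39, adjusted p = 7.95e-05) and the fibronectin receptor chain ITGA5 (2.41, SE 0.26, adjusted p = 7.21e-06).

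Few genes of other cell types could be tested. PMEL, a melanosome protein and 1 of 2 tested genes of Schwann cells and melanocytes, was at 66.8, 10.1 and 116 CPM in nose and 0.522, 1.33 and 1.85 CPM in the other group (-5.85, SE 1.13, adjusted p = 0.0129), with adjusted p up to 0.0709 over the alternatives run. MS4A2, a chain of the mast cell receptor for IgE and the 1 gene tested of its list, differed by -2.18 (SE 0.47, adjusted p = 0.00562), and nose replicate 2 at 10.3 CPM overlapped the other group. JCHAIN, which joins secreted antibodies and was the 1 called of 3 tested B and plasma cell genes, was at 362, 33.3 and 293 CPM against 7.83, 2.32 and 14.8 CPM (-4.90, SE 1.04, adjusted p = 0.022), with adjusted p up to 0.0804. Skeletal muscle ACTA1 was at 650, 4.39 and 849 CPM against 2.35, 9.60 and 29.0 CPM and was not called (-5.34, SE 1.80, adjusted p = 0.0982), but was without nose replicate 2 (-5.98, adjusted p = 0.00371). Nose replicate 2 was the lowest of the nose libraries for each of these genes. HBB (beta globin) was at 0.462 to 2.09 CPM in nose and 189, 6.62 and 17.3 CPM under the scrotum label and was not called (5.93, SE 1.61, adjusted p = 0.0528).

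Lists of metabolism and signalling were mixed, where 9.04% of all genes tested were higher and 8.39% lower. Of 14 tested NRF2 and detoxification genes 5 were higher and 1 lower. HMOX1, which degrades haem, was at 3.47, 9.29 and 4.18 CPM against 46.2, 62.9 and 20.4 CPM (2.97, SE 0.41, adjusted p = 0.000211), and ALDH1A1, which oxidises retinal, differed by 4.11 (SE 0.37, adjusted p = 1.15e-06), while the list's lower gene was AKR1C1. CRABP2, which carries retinoic acid into the nucleus, was at 235, 294 and 284 CPM in nose and 77.7, 55.3 and 58.7 CPM under the scrotum label (-2.08, SE 0.24, adjusted p = 1.31e-05). Of 11 tested genes of arginine and polyamine metabolism 3 were higher and 2 lower, and ARG1 (arginase) was at 500, 2277 and 394 CPM against 7020, 11440 and 5450 CPM (2.92, SE 0.71, adjusted p = 0.0292), with adjusted p up to 0.0956. Of 18 tested WNT and BMP genes 5 were higher and none lower, led by BMP2 (2.92, SE 0.52, adjusted p = 0.00486). Of 16 tested genes of cholesterol synthesis 1 was higher, and the median was 0.17. DGAT2, which makes triglyceride in sebaceous and fat cells, was lower (-3.28, SE 0.41, adjusted p = 0.000103), 1 of 2 lower genes among 4 tested of the sebaceous list.

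The remaining lists gave few calls, to be read beside the 9.04% higher and 8.39% lower of all genes tested. Wound and stress keratinocyte genes had 2 higher of 8 tested and 6 higher without nose replicate 2. Hair follicle genes had 1 higher (PADI3) and 1 lower (SOX21) of 7. Smooth muscle genes had 2 higher of 9 (ACTA2 and TPM2, the first lost without nose replicate 1 or scrotum-labelled replicate 2 or 3), endothelial genes 3 lower of 12, neutrophil genes 1 lower of 5 (FCGR3A) and patterning genes of trunk, limb and genital tissue 1 lower of 3. SPP1 was the 1 higher gene of 3 tested for cartilage and bone. Of 6 skeletal muscle genes 0 were called, and of 3 adipocyte genes 0. T and NK cell genes and anterior HOX genes were too low to test.

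The same 2 labels were compared in normal tissue, where 70 genes (0.66% of 10602 tested) were higher and 229 (2.16%) lower in WT scrotum than in WT nose. No library is shared with the tumour comparison. Of the 912 genes higher in scrotum-labelled tumours 752 were tested in normal tissue, and 12 of them were called in the same direction and 38 in the opposite one. Of the 846 lower genes 660 were tested, with 11 called in the same direction and 6 in the opposite one. Without WT nose replicate 1 these counts were 2 and 21 of 810 tested higher genes, and 5 and 2 of 714 tested lower ones. The WT libraries varied widely: KRT1 was at 590, 43.2 and 77.3 CPM in WT nose and 23.5, 26950 and 12.5 CPM in WT scrotum (replicate 2 alone was high), and WT nose replicate 1 had 418665 counts. Leaving out 1 WT library moved the counts between 4 and 283 higher and between 89 and 442 lower. Skeletal muscle ACTA1 was at 51650 to 84520 CPM in WT nose and 63260 to 116000 CPM in WT scrotum. It reached at most 849 CPM in the tumours compared. KRT5 was at 454 to 1101 CPM in WT nose and 947, 12860 and 41.0 CPM in WT scrotum. Low epithelial genes and few shared calls cannot be told apart here from a small share of epithelium in the WT tissue. MUC21 reached at most 1.24 CPM and PITX1 at most 3.48 CPM in these WT libraries, and ISG15 was at 18.2 to 25.5 CPM in WT nose and 7.40 to 28.0 CPM in WT scrotum (-0.43, SE 0.44, adjusted p = 0.659). Whether the tumour and normal differences differ from each other was not tested.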

How the data were processed

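Messenger RNA libraries were made from tissue kept in RNAlater, extracted with TRIzol and prepared with a VAHTS mRNA-seq V3 kit, as the labels' protocols say. The table holds whole-number read counts per gene and library as deposited by the authors, with no normalization; the submitters' processing notes name HTSeq 0.11.2, HISAT2 2.1.0 and fastp. The sources used here give no build, annotation or strand setting. No coordinates are therefore printed, and reads of overlapping or antisense genes cannot be told apart.

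Counts were scaled by TMM and tested with edgeR 4.0.16 (R 4.3.3, robust quasi-likelihood fit) in the 9 tumour libraries, so that the mouth-labelled tumours shared the estimate of the spread (common coefficient of variation 23.6%), after filterByExpr (minimum count 10, minimum total 15), which kept 99.2% to 99.5% of counts. SE is the absolute log2 difference over the square root of F. WT libraries were fitted separately in the same way. CPM are scaled by TMM over the fitted libraries, and sums of the HOX genes and all WT position values over the libraries they are compared with. The code was tested on simulated counts. Alternatives were other scalings and filters, DESeq2 1.42.0, limma-voom (limma 3.58.1), other sets of libraries, a replicate block, stricter thresholds and leaving out each library.

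The 44 gene lists and the rule for named genes were chosen with earlier results of these data known, and no list was tested as a set. The rule took the 12 largest differences and the 8 smallest adjusted p per direction among called genes that have a symbol, do not overlap between groups and reach 10 CPM where higher, then up to 4 called members and the most abundant member of each list, and detected position genes, 186 genes in all. Another 45 were added after their values were seen, among them KRT10, KLK7, CASP14, CALML5, IVL, LOR, RHCG, CRNN, TP63, LAMB3, OASL, ERO1A, VEGFA, AREG, EGFR, CXCL8, S100A8, TIMP1, DCN, MKI67, TYROBP and NKX2-3. Intervals and floors cover counting error only. Ratios at 1 to 3 counts have exact intervals at the 95% level. Some genes are not reported here.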

Additional observations from a re-analysis of the deposited data

How the results depend on the processing

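Of 213 genes followed through 21 alternatives, 170 were called; 85 of these kept the call in each alternative that tested them, 85 lost it in at least 1 and none changed direction. DESeq2 lost 1 of the 170 (MAF) and limma-voom 2, while 35 were lost only with all 18 libraries in 1 fit. Counts of genes higher and lower stayed within 1.5 times of 912 and 846 except under these settings: library size alone gave 607 and 1309, all 18 libraries in 1 fit 436 and 377 (794 of these 813 genes were among the 1758), and a threshold of 0.01 gave 471 and 443. Leaving out 1 tumour library gave 502 to 1198 higher and 454 to 1099 lower; in normal tissue leaving out 1 library gave 4 to 283 higher and 89 to 442 lower. The replicate numbers were not taken as pairs, since no label says that they pair across sites. Same-numbered nose and scrotum-labelled libraries deviated together at r = -0.01, 0.23 and 0.11, and 2 of the 3 nose libraries correlated best with their own number. These values do not settle whether the numbers are pairs. With the number as a block, 932 genes were higher and 815 lower (1625 shared with the 1758), 6 of the 170 calls were lost, and normal tissue gave 48 higher and 205 lower. With 2025000 to 4146000 counts per library, genes that did not pass the filter (minimum count 10, minimum total 15) gave no test. Genes at or under the floor of 0.693 to 1.85 CPM in 1 group only, such as HRNR, could still be tested.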
